A study of Mus musculus with 8 samples.

Results

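Integrins are adhesion receptors made of an alpha and a beta chain. This report describes 10 integrin genes named for their use on natural killer (NK) cells and their progenitors: the beta chains Itgb1, Itgb2 and Itgb7 and the alpha chains Itga1, Itga2, Itga4, Itga6, Itgae, Itgal and Itgam. They were taken by symbol, from probe sets annotated to that symbol alone, and are 10 of the 17097 genes the array annotation names in this way. They have 20 probe sets, and 6 of the 10 genes have 1 probe set each. The RNA came from sorted bone marrow progenitors of Id2-GFP reporter mice, wild type (WT) or Nfil3 knockout (KO), from lineage-depleted marrow. All 4 groups therefore carry the reporter, and each is a sorted population that was not cultured. The all-lymphoid progenitor (ALP) precedes the prepro NK cell (preproNK), and both were taken from both genotypes, with 2 arrays per group, numbered by processing date. The labels do not give the age of the mice, how many were pooled or how the knockout was made. Nor do they say that replicates came from separate animals, so p-values reflect the spread among these samples alone. The X-linked gene Xist was at 3.10 to 3.56 on all replicate 1 arrays. On replicate 2 arrays it was at 7.94 to 9.30, other than on that of WT preproNK (4.20). In the other 3 groups the replicates were thus not repeats of the same RNA. The Y-linked gene Eif2s3y was at 6.60 to 7.04 on replicate 1 arrays and 4.19 to 5.22 on replicate 2 arrays, WT preproNK included. Kdm5d, also Y-linked, was at 6.35 to 6.78 and 4.25 to 5.21. The sex-linked genes thus differ with replicate number as the processing date does.

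The values are log2 expression levels per probe set, and each array's median over all probe sets, 3.93 to 4.26, is used here as the limit below which a gene is near background. One array, WT preproNK replicate 2, was unlike the rest. Its values had an SD of 1.39, against 1.55 to 1.88 elsewhere, and over tested genes it correlated better with WT ALP replicate 2 (r = 0.747) than with the other array of its own group (r = 0.621). The larger moves on leaving it out are given beside the results. Nfil3 itself, a bZIP transcription factor needed for NK cell development, was at 6.19 ± 0.98 in WT and 3.78 ± 0.52 in KO for ALP, and at 4.74 ± 0.01 in WT and 3.71 ± 0.19 in KO for preproNK (SD, n = 2), lower on all KO arrays than on all WT arrays. KO minus WT, fitted by limma, came to -2.41 for ALP (SE 0.52, adjusted p = 1) and to -1.04 for preproNK (SE 0.52, adjusted p = 0.613). The 17 NK stage markers (16 with a probe set) averaged 4.28 to 4.54 in ALP, 5.19 and 4.76 in WT preproNK and 6.01 and 5.98 in KO preproNK. Of the 14 tested, 12 were higher in preproNK in the mean of both genotypes. At a limma adjusted p under 0.05, 4 were higher and 1 lower, against 3.38% of all genes tested. The receptor gene Ncr1 lay below the array median on all 8 arrays. Klrk1, another activating receptor gene, was at 5.62 and 4.48 in WT and 7.79 and 7.26 in KO preproNK, against 3.15 to 3.65 in ALP. Cd244a, in contrast, was at 5.78 to 6.86 in ALP and 4.29 to 4.96 in preproNK.

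Each beta chain pairs with a set of alpha chains, and the pair decides the ligand. Itgb7 joins Itga4 to bind the mucosal addressin MAdCAM-1, or Itgae to bind E-cadherin, and alpha4 beta7 is a known marker of lymphoid progenitors that give rise to innate lymphoid cells. Itgb2 joins Itgal to form LFA-1, which binds ICAM proteins and holds killer cells to their targets, or Itgam to form Mac-1, a complement receptor of myeloid cells. Itgb1 joins Itga1 or Itga2 to bind collagen, Itga4 to bind VCAM-1 and fibronectin, or Itga6 to bind laminin. In mouse NK development Itga2 appears as cells mature and Itgam rises at the last stages, so both serve as later stage markers.

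Promoter windows are shown for the member that changed most between the stages, Itgb7, and for the later stage markers Itga2 and Itgam. Each is the 250 bases before a RefSeq start site (GRCm38.p6). The Itgb7 window lies inside the annotated gene (chr15:102215994-102233405), so its start site is not the outermost one. The windows of Itga2 and Itgam border their genes. RefSeq promoter windows were found for 6 of the 10 genes. Capitals mark matches to sites known for factors of lymphoid development, searched on both strands.
Itgb7, chr15:102231936-102232185, minus strand: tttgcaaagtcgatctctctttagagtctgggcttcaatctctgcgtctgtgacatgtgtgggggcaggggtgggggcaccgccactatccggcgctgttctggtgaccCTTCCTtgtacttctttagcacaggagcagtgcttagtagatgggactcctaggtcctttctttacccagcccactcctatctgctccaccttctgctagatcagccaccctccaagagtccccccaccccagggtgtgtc
Itga2, chr13:114932101-114932350, minus strand: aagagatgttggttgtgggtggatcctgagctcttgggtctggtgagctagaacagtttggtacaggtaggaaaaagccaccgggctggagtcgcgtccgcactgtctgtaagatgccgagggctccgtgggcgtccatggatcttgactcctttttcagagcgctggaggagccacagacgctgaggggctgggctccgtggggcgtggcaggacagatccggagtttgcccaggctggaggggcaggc
Itgam, chr7:128062390-128062639, plus strand: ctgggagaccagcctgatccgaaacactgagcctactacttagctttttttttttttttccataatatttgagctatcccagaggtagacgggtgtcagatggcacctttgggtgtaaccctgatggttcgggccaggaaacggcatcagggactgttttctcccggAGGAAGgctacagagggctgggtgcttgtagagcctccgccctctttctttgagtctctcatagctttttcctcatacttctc
The searched letters were AGGAAG for ETS factors, TGTGGT for RUNX factors, AGATAA for GATA factors, GGTGTGA for T-box factors and TTANGTAA for Nfil3 and related bZIP factors, and none of these overlaps another in the sequences shown. The E-box CANNTG was searched too and is not capitalised, being in 66.2% of all windows and in 4 of the 6, Itgb7 (CATGTG) and Itgam (CAGATG) among them. The capitals in Itgb7 and Itgam are ETS letters, and Itga2 has no match. Over the 6 windows the ETS letters stood in 4, against 29.5% of 32851 promoter windows of this length. The RUNX letters stood in 1 of 6 (14% of all windows) and the T-box letters in 1 of 6 (3.33%), both in Itga4. The Nfil3 letters (2.06% of all windows) and the GATA letters (9.99%) stood in 0 of 6. A match describes letters only, and its absence says nothing of the factor.

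**Figure D1:**
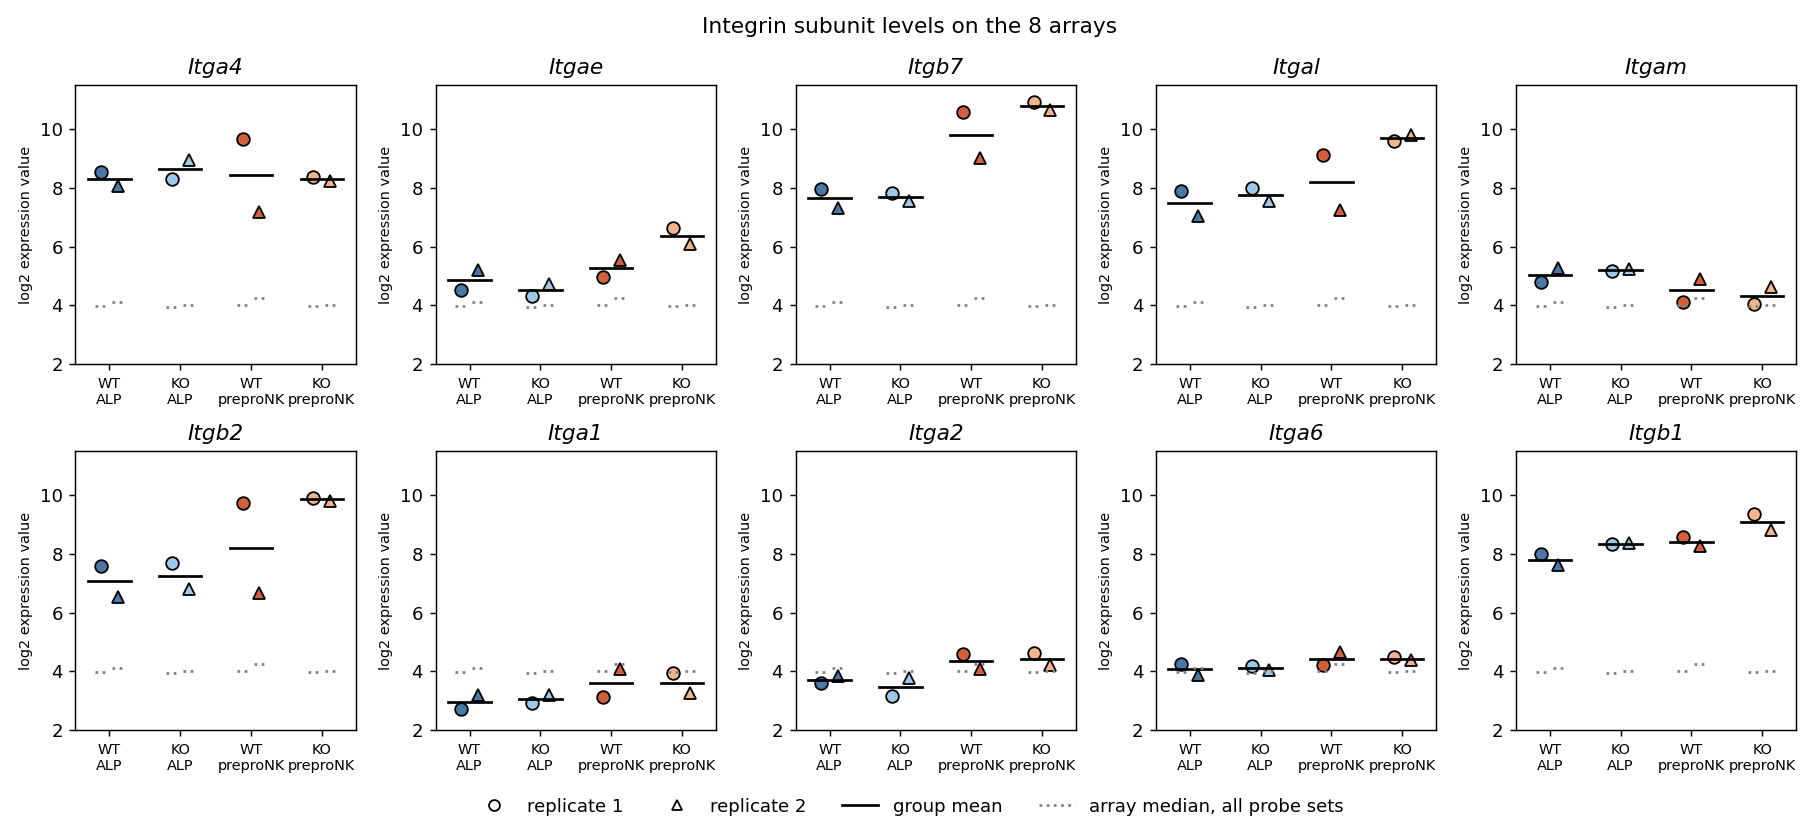
Log2 expression value (y axis) of each of the 10 integrin genes in the 4 groups (x axis). Circles are replicate 1, triangles replicate 2, bars the group mean, and dotted lines each array's median over all probe sets. Itgb7 reaches 9.03 to 10.91 in preproNK against 7.32 to 7.98 in ALP, whereas Itga1 stays below the median on every array.

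Between ALP and preproNK, Itgb7 was the 1 integrin gene of the 9 tested that changed past the test in the fit with groups alone. It rose in KO and in the mean of both genotypes. With replicate number added as a block, Itgae was also called in KO and in the mean, and Itgb2 in the mean. The level of Itgb7 (Entrez gene 16421), replicate 1 first, was 7.98 and 7.32 in WT and 7.82 and 7.57 in KO for ALP. For preproNK it was 10.58 and 9.03 in WT and 10.91 and 10.64 in KO. All 4 preproNK arrays lay above all 4 ALP arrays, by more than the replicates of any group differed except WT preproNK, whose 2 arrays were themselves apart. The log2 difference between preproNK and ALP was 3.08 (SE 0.54, an 8.48-fold rise, limma adjusted p = 0.0383) in KO and 2.62 (SE 0.39, 6.15-fold, adjusted p = 0.0136) as the mean of both genotypes. In WT it was 2.16 (SE 0.54, 4.46-fold), with an adjusted p of 0.277. The difference in WT was 2.93 without the WT preproNK replicate 2 array and 1.38 without replicate 1 of that group. Without WT ALP replicate 1 or 2 it was 2.49 or 1.83. In WT Itgb7 was not called with only the WT groups fitted or with no filter (limma adjusted p = 0.356). It was called there with quantile normalization repeated (0.0392).

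By limma over all genes, 1 of 9 tested members was called in KO and 1 of 9 in the mean of both genotypes, against 1.75% and 3.38% of the 11583 genes tested. In WT 0 of 9 were called, against 0.095% of genes, and 1 of 9 (Itgb7) had an unadjusted p under 0.05, as had 7.36% of all genes. At that limit the members numbered 5 in KO and 6 in the mean, against 10.2% and 14.4% of genes. With replicate number as a block, 0, 2 and 3 members were called in WT, KO and the mean, against 0.578%, 3.88% and 7.36% of genes. The tenth gene, Itga1, was not tested, because it lay below the median on all 8 arrays. Itga2 passed that filter only on 3 preproNK arrays, so counts over the tested members are not evidence about the whole set. The call for Itgb7 in KO was lost when either KO array of ALP or of preproNK was left out (adjusted p = 0.258 to 0.372) or either WT ALP array (0.06), and that in the mean when any 1 of the 4 KO arrays was (0.069 to 0.103).

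The partners of Itgb7 did not follow it alike. Itga4 (Entrez gene 16401), which pairs with Itgb7 or Itgb1, was high in every group, at 8.55 and 8.06 in WT and 8.31 and 8.96 in KO for ALP, and at 9.66 and 7.19 in WT and 8.37 and 8.25 in KO for preproNK. Its highest and its lowest array were the 2 of WT preproNK, so the groups overlap fully. The log2 difference between preproNK and ALP was -0.10 (SE 0.52, 95% interval -1.31 to 1.10) in the mean of both genotypes, 0.59 in the replicate 1 arrays and -0.79 in the replicate 2 arrays. In WT it was 1.36 without WT preproNK replicate 2 and -1.11 without replicate 1. Of its 4 other probe sets 3 showed the same order of the WT preproNK arrays all above the median, with 8.79 against 7.04, 8.55 against 6.14 and 7.65 against 4.81. The other one lay below the median on every array.

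Itgae (Entrez gene 16407), the CD103 chain of lymphocytes resident in epithelia, was at 4.52 and 5.20 in WT and 4.31 and 4.75 in KO for ALP, and at 4.97 and 5.55 in WT and 6.65 and 6.10 in KO for preproNK. The KO preproNK arrays stood above all others, while WT preproNK and WT ALP overlap. The log2 difference between preproNK and ALP was 1.85 (SE 0.43) in KO and 0.40 (SE 0.43) in WT. The adjusted p by limma was 0.101 in KO, and 0.0407 with replicate number, which marks the processing date, as a block. When either WT preproNK array was left out, the adjusted p in KO was 0.0376. In the mean of both genotypes the difference was 1.12 (SE 0.31) with an adjusted p of 0.108, and was called with the block (0.0473) and without WT preproNK replicate 1 (1.27, adjusted p = 0.0414).

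T lineage, gamma delta T17 and group 2 innate lymphoid cell markers were also at higher mean levels on the preproNK arrays, as was Itgb7. Their order among these arrays was not always that of Itgae. The list of 12 T lineage markers averaged 4.52 to 4.84 on the ALP arrays, 6.43 and 5.80 in WT preproNK and 7.83 and 7.54 in KO preproNK, where 11 of the 12 lay above the array median. The gamma delta T17 markers (5 of 8 with a probe set) averaged 3.58 to 3.71 in ALP, 5.54 and 4.16 in WT and 7.28 and 6.96 in KO preproNK, with Il17a below the median on all 8 arrays. The group 2 innate lymphoid cell markers (6 of 8 with a probe set) averaged 3.89 to 4.22 in ALP and were highest on WT preproNK replicate 1 (7.43), above WT preproNK replicate 2 (5.31) and KO preproNK replicate 1 (6.07), with Il5 and Il13 below the median on all preproNK arrays. Itgae, in contrast, was lower on WT preproNK replicate 1 than on the other 3 preproNK arrays. B lineage markers (7 of 9 with a probe set) were not higher in preproNK. They averaged 4.79 to 5.02 in ALP, 4.03 on WT preproNK replicate 1 and 4.17 and 4.29 in KO preproNK. WT preproNK replicate 2 lay inside the ALP range. In the mean of both genotypes 5 of the 6 tested were lower in preproNK, and 1 (Blnk) was called lower. The part of these cell types in the integrin values was not tested, and in sorted pools more cells of a type cannot be told apart from more RNA per cell.

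**Figure D2:**
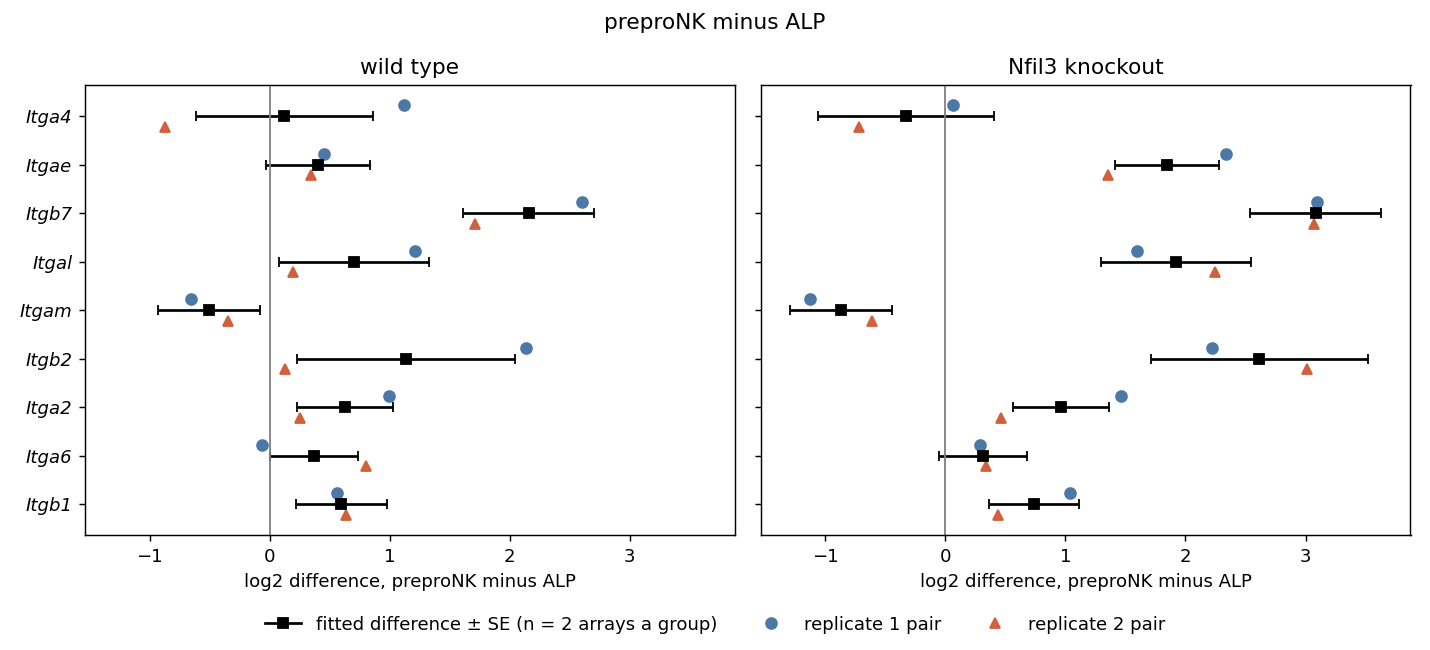
Log2 difference between preproNK and ALP (x axis) for the 9 tested integrin genes (y axis) in WT and KO. Squares with bars are the fitted difference ± SE, circles the replicate 1 pair and triangles the replicate 2 pair. In KO both pairs put Itgb7, Itgb2, Itgal and Itgae at 1.36 or more, whereas in WT the replicate 2 pair puts Itgb2 at 0.13 and Itgal at 0.19.

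Among the leukocyte integrins, Itgb2 and Itgal had higher mean values in preproNK and Itgam lower ones, none past the test over all genes. Itgb2 (Entrez gene 16414), the common chain, was at 7.58 and 6.54 in WT and 7.68 and 6.80 in KO for ALP, and at 9.72 and 6.67 in WT and 9.90 and 9.81 in KO for preproNK. The WT preproNK replicate 2 array lay inside the ALP range, and the other 3 preproNK arrays lay above it. The log2 difference between preproNK and ALP was 2.62 (SE 0.91, adjusted p = 0.308) in KO and 1.13 (SE 0.91, adjusted p = 0.921) in WT. The difference in WT was 2.66 (adjusted p = 0.0742) without WT preproNK replicate 2 and -0.39 without replicate 1. The mean of both was 1.87 (SE 0.64, adjusted p = 0.207), and was called with the block (adjusted p = 0.0434) and without WT preproNK replicate 2 (2.64, adjusted p = 0.00457).

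Itgal (Entrez gene 16408), the LFA-1 alpha chain, was at 7.91 and 7.06 in WT and 7.98 and 7.54 in KO for ALP, and at 9.12 and 7.25 in WT and 9.58 and 9.79 in KO for preproNK. It showed the order of Itgb2, with the same WT preproNK array inside the ALP range. The log2 difference was 1.92 (SE 0.63, adjusted p = 0.268) in KO, 0.70 (SE 0.63, adjusted p = 0.929) in WT and 1.31 (SE 0.44, adjusted p = 0.199) in the mean. Without WT preproNK replicate 2 the difference in WT was 1.64 (adjusted p = 0.209), and without replicate 1 it was -0.23. Its other probe set reached at most 7.62 in ALP and was at 8.83 and 7.67 in WT and 9.50 and 9.57 in KO preproNK, so that all its preproNK arrays lay above all its ALP arrays. Tested among all probe sets, that one had a difference of 1.56 (SE 0.31, adjusted p = 0.0464) in the mean. Without WT preproNK replicate 2 the main probe set was called as well (1.78, adjusted p = 0.0126). When either WT preproNK array was left out, the differences in KO were called for Itgb2 (adjusted p = 0.018) and Itgal (0.0328). Across the 8 arrays Itgal and Itgb2 had a Pearson r of 0.985, higher than that of any other pair among the 9 tested members, and the arrays share their preparation and their range of values.

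Itgam (Entrez gene 16409), the CD11b chain, was at 4.78 and 5.26 in WT and 5.18 and 5.22 in KO for ALP, and at 4.12 and 4.91 in WT and 4.06 and 4.61 in KO for preproNK. All values were above the array medians. The margin was least on the replicate 1 preproNK arrays, 4.12 in WT and 4.06 in KO against medians of 4.02 and 3.98. The ALP medians were 3.93 to 4.13. Of the preproNK arrays 3 lay below every ALP array. The log2 difference between preproNK and ALP was -0.87 (SE 0.42, adjusted p = 0.605) in KO, -0.50 (SE 0.42, adjusted p = 0.923) in WT and -0.69 (SE 0.30, 95% interval -1.38 to 0.01) in the mean, with the same sign in both replicate pairs. In WT it was -0.90 without WT preproNK replicate 2 and -0.11 without replicate 1. This later stage marker thus had the lower mean in preproNK in both genotypes, though the interval of the difference reaches 0.01. Of the myeloid granule and monocyte markers 11 of 12 had a probe set, and their mean was 5.37 to 5.74 in ALP, 6.06 and 4.83 in WT preproNK and 6.19 and 5.85 in KO preproNK. Of the 10 tested, 5 were higher and 5 lower in preproNK in the mean of both genotypes. In that mean 1 was called higher, and with the block 1 higher and 2 lower, against 3.38% and 7.36% of all genes tested. Mpo was at 8.96 to 10.46 in ALP and 5.52 to 9.40 in preproNK, Lyz2 at 7.07 to 7.88 and 6.46 to 9.47, and S100a8 lay below the median on all 8 arrays. Their part in the level of Itgam was not tested.

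Of the collagen and laminin receptor genes, Itgb1 was high in all groups while its alpha chains Itga1, Itga2 and Itga6 stayed near the array medians. Itgb1 (Entrez gene 16412) was at 7.99 and 7.61 in WT and 8.33 and 8.37 in KO for ALP, and at 8.55 and 8.25 in WT and 9.37 and 8.81 in KO for preproNK. The KO preproNK arrays stood highest and the WT ALP arrays lowest, with KO ALP and WT preproNK overlapping between them. The log2 difference between preproNK and ALP was 0.67 (SE 0.27, adjusted p = 0.289) in the mean of both genotypes, with 0.80 in the replicate 1 arrays and 0.54 in the replicate 2 arrays. Of the 4 other probe sets, 2 lay below the median on every array. The brightest of them was at 5.67 and 5.45 in WT and 6.04 and 5.06 in KO for ALP, and at 5.87 and 5.25 in WT and 7.62 and 6.82 in KO for preproNK, so it set KO preproNK apart from the other 3 groups. Its log2 difference between the stages was 1.67 (SE 0.48) in KO and 0.00 (SE 0.48) in WT, and the adjusted p in KO was 0.21.

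Itga2 (Entrez gene 16398), the CD49b chain that carries the DX5 epitope of mouse NK cells, was at 3.60 and 3.83 in WT and 3.17 and 3.77 in KO for ALP, and at 4.60 and 4.08 in WT and 4.63 and 4.23 in KO for preproNK. All 4 preproNK arrays lay above all 4 ALP arrays, but every ALP value and the WT preproNK replicate 2 value were below the array median. Of the 9 tested members, 2 (Itga2 and Itgb7) showed this order, as did 4.52% of all genes tested, and 0 showed the opposite order, as did 6.97%. Itga2 passed the filter only through 3 preproNK arrays, so its place in this count was partly set by the filter. The log2 difference was 0.62 (SE 0.40) in WT, 0.96 (SE 0.40) in KO and 0.79 (SE 0.28, adjusted p = 0.225) in the mean. With every value below the array median raised to it, the differences were 0.46 in KO and 0.42 in the mean. Itga2 was called only with the block and WT preproNK replicate 2 left out together (0.96, adjusted p = 0.0376), an alternative chosen after seeing the data.

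Itga1 (Entrez gene 109700), which marks tissue-resident NK cells and type 1 innate lymphoid cells, was at 2.72 and 3.21 in WT and 2.94 and 3.18 in KO for ALP, and at 3.14 and 4.07 in WT and 3.93 and 3.28 in KO for preproNK. Every one of these is below its array's median, so the values give no level. Itga6 (Entrez gene 16403) was at 4.27 and 3.87, 4.19 and 4.05, 4.20 and 4.67, and 4.48 and 4.40 in the same order of groups. It lay close to the medians throughout and differed between preproNK and ALP by 0.34 (SE 0.26, 95% interval -0.25 to 0.94) in the mean. Its other probe set ranged from 3.72 to 4.58, with both extremes in preproNK.

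Loss of Nfil3 was compared within each population, the question of the study's title being where in NK development the factor is needed. In preproNK 6 of the 9 tested members had higher values in KO, and 0 were called by limma. Of all genes tested 0% were called. An unadjusted p under 0.05 was reached by 2 of 9 members, Itgal and Itgae, both higher in KO, against 5.4% of all genes, and 0 of 9 were called with the block, against 0.0863%. The median log2 difference was 0.68 over the 9 and 0.15 over all genes tested.

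The 2 replicate pairs gave these differences unequally. Itgb2 was 1.66 (SE 0.91) higher in KO on the log2 scale, from 0.18 in the replicate 1 pair and 3.14 for replicate 2. Itgal was 1.5 (SE 0.63) higher, from 0.46 and 2.54, and Itgb7 0.97 (SE 0.54) higher, from 0.33 and 1.61. For all 3 the larger value is set against the WT preproNK replicate 2 array, which stood apart. With that array as the sole WT preproNK sample all 3 were called (adjusted p = 0.0137, 0.0163 and 0.0294), as were 2532 genes in all, and without it 0 members were, with differences of 0.13 for Itgb2, 0.56 for Itgal and 0.20 for Itgb7.

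Itgae and Itgb1 were higher in KO in both pairs, and more so in the replicate 1 pair. Itgae was 1.12 (SE 0.43, 95% interval 0.11 to 2.12) higher in KO preproNK, from 1.68 in the replicate 1 pair and 0.55 for replicate 2, with an adjusted p of 0.613. Itgb1 was 0.68 (SE 0.38) higher, from 0.81 and 0.56, and its brightest other probe set 1.66 (SE 0.48) higher, with adjusted p-values of 0.613 and 0.628. With quantile normalization repeated the Itgb1 difference was -0.01, and without KO preproNK replicate 1 or 2 it was 0.40 or 0.96. Itga2 differed by 0.09 (95% interval -0.83 to 1.02), Itgam by -0.18 (-1.17 to 0.80), Itga4 by -0.12 (-1.82 to 1.58) and Itga6 by 0.00 (-0.84 to 0.84). Without WT preproNK replicate 2 the difference was 0.21 for Itgam, -1.36 for Itga4 and 0.24 for Itga6.

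**Figure D3:**
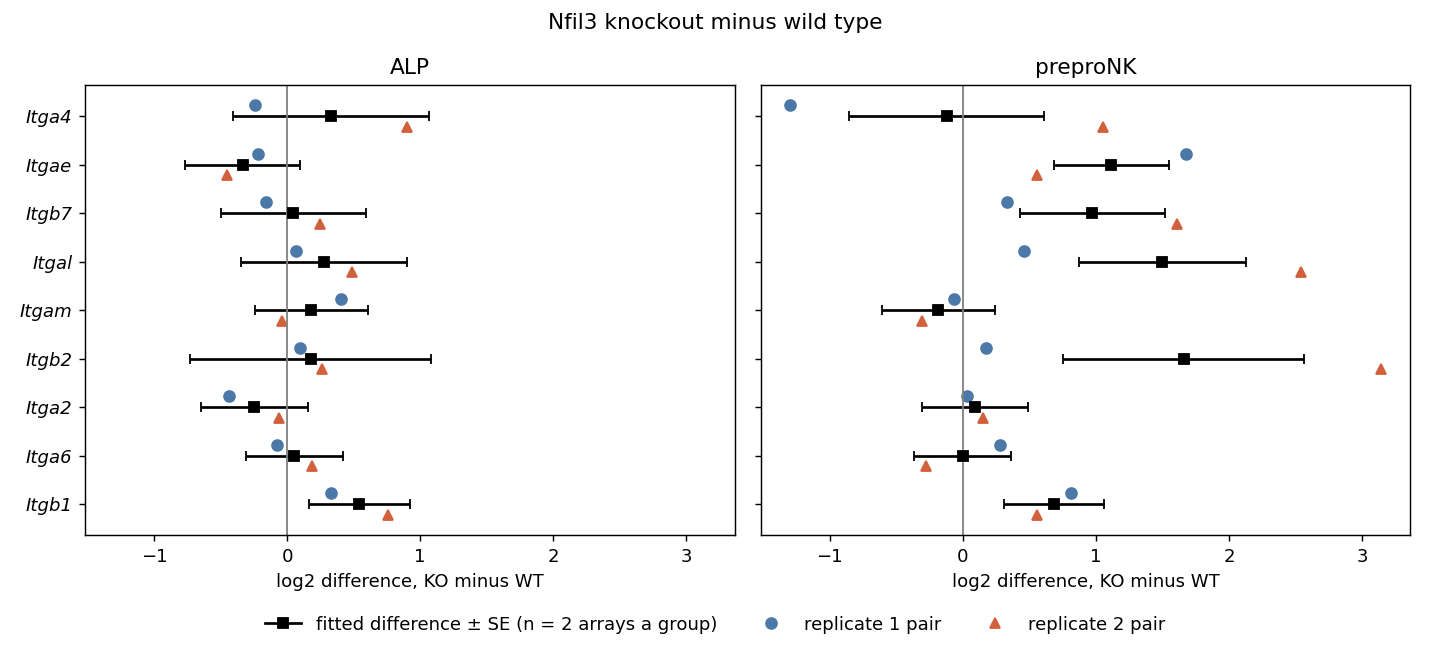
Log2 difference between KO and WT (x axis) for the 9 tested integrin genes (y axis) in ALP and preproNK. Squares with bars are the fitted difference ± SE, circles the replicate 1 pair and triangles the replicate 2 pair. In preproNK the pairs differ most for Itgb2 (0.18 and 3.14) and take opposite signs for Itga4 (-1.30 and 1.05).

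In ALP no integrin difference between KO and WT passed the test. By limma 0 of 9 members were called and 0 had an unadjusted p under 0.05, against 0% and 0.0432% of all genes tested. Nfil3 itself, with a difference of -2.41, was not called in this comparison. A missing call here therefore does not show that a difference is absent. The log2 differences between KO and WT ran from -0.33 for Itgae to 0.54 for Itgb1. Itgb7 differed by 0.05 (95% interval -1.21 to 1.31) and Itga4 by 0.33 (-1.37 to 2.03). The main probe set of Itgb1 was higher in KO in both pairs, by 0.33 and 0.76, but its 2 other tested probe sets differed by -0.01 and -0.16, and the mean over probe sets by 0.07. Itgae was lower in KO in both pairs, by -0.22 and -0.45.

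Whether the effect of the knockout differed between preproNK and ALP was asked with the interaction. Itgae had the lowest p of the 9, with an interaction of 1.45 (SE 0.61, 95% interval 0.03 to 2.87), from 1.89 in the replicate 1 arrays and 1.01 in the replicate 2 arrays. Its adjusted p was 1 by limma, or 0.981 with the block, so the difference is not shown. Of the 9 members 0 were called and 1 had an unadjusted p under 0.05, against 0% and 1.58% of all genes tested. Itgb2 (1.48, SE 1.28), Itgal (1.22, SE 0.88) and Itgb7 (0.93, SE 0.77) also had positive values, and those of Itgb2 in the replicate arrays were 0.08 and 2.88.

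Of the other integrin subunits, listed with earlier results known, 10 of 16 were tested. Between the stages Itgb3 alone was called, in KO and in the mean, against 1.75% and 3.38% of all genes tested. Itgb3, which pairs with Itgav to bind vitronectin or with the platelet chain Itga2b, was at 4.45 and 5.12 in WT and 5.10 and 4.59 in KO for ALP, and at 9.60 and 7.87 in WT and 9.33 and 9.34 in KO for preproNK. Every preproNK array lay above every ALP array, with a gap wider than the spread within any group. The log2 difference was 4.49 (SE 0.59, adjusted p = 0.0127) in KO, 3.95 (SE 0.59, adjusted p = 0.0933) in WT and 4.22 (SE 0.41, adjusted p = 0.00339) in the mean. In WT it was called with the block (adjusted p = 0.0378). The call in KO was lost without any 1 of the 4 KO arrays (adjusted p = 0.113 to 0.198), and that in the mean held under every alternative run. Its partners Itgav and Itga2b were not called, with 1.07 (SE 0.33, adjusted p = 0.157, or 0.0363 with the block) for Itgav in the mean and values of 4.48 to 5.93 on all arrays for Itga2b. Of 9 megakaryocyte markers, a list that holds Itgb3 and Itga2b, 7 had a probe set and 3 of the 7 lay above the median on every array. The list's average is not set beside Itgb3, because Itgb3 is part of it. Of the 3 markers tested, Itgb3 was the 1 called in the mean. Gp9 was at 4.29 to 4.88 over all arrays, and Pf4 and Ppbp lay below the median on all 8. Their part in the level of Itgb3 was not tested.

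Of 28 genes that activate integrins or link them to actin, 24 were tested, and Rasgrp1 and Skap1 were the 2 called in the mean, against 3.38% of all genes tested, with Rasgrp1 alone called in KO, against 1.75%. Rasgrp1, an exchange factor for Ras upstream of integrin activation in T cells, rose by 5.38 (SE 0.62, limma adjusted p = 0.0085) in KO. In the mean it rose by 4.59 (SE 0.44, adjusted p = 0.0029). Its values were 4.14 to 5.15 on the ALP arrays, and 9.23 and 7.64 in WT and 10.14 and 9.80 in KO preproNK. As the mean over probe sets the rise was smaller, 4.63 in KO, 3.61 in the mean of both genotypes and 2.58 in WT. Skap1, an adaptor that brings LFA-1 activators to the membrane, rose by 3.01 (SE 0.52, adjusted p = 0.0247) in the mean. It was not called in KO (3.30, adjusted p = 0.0876, or 0.0393 with the block), and the call in the mean was lost without any 1 ALP or KO preproNK array (adjusted p = 0.063 to 0.162). The Rasgrp1 call in KO was lost without any 1 KO array (0.0846 to 0.148), and in WT its difference of 3.80 had an adjusted p of 0.109, or 0.0466 with the block. The list's median in the mean of both genotypes was 0.15, with 15 of 24 genes higher, against a median of -0.01 over all genes tested. Talin 1 (Tln1), the core linker, named after its values were seen, differed by -0.08 (SE 0.51) in the mean, at 9.08 to 10.14 in ALP and 10.05, 7.69, 10.36 and 10.42 in preproNK.

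Of 22 integrin ligands and counter-receptors 11 were tested. Between the stages 1, the membrane glycoprotein gene Thy1, was called in WT, KO and the mean, against 0.095%, 1.75% and 3.38% of all genes tested. It rose by 4.09 (SE 0.49, adjusted p = 0.0401) in WT, 5.86 (SE 0.49, adjusted p = 0.00359) in KO and 4.98 (SE 0.35, adjusted p = 0.00117) in the mean. The call in WT was lost without either WT ALP array, either KO ALP array or either KO preproNK array. It was also lost with no filter (limma adjusted p = 0.0731) and with only the WT groups fitted (0.585). The call in KO was lost without any 1 KO array. The matrix protein gene Fn1 had a mean difference of 1.96 (SE 0.51, adjusted p = 0.0959, or 0.0456 with the block). Of 13 other adhesion and homing receptor genes 12 were tested and 0 were called in the mean, where 5 had an unadjusted p under 0.05, against 3.38% and 14.4% of all genes. The tetraspanin gene Cd82 had a difference of 2.17 (SE 0.53, adjusted p = 0.0777, or 0.0145 with the block). Between KO and WT preproNK 0 genes of these 4 lists were called and 12 of the 24, 11, 12 and 10 tested had an unadjusted p under 0.05, against 0% and 5.4% of all genes tested. Of the activation and linkage genes 21 of 24 were higher in KO, with a median of 1.08 against 0.15 over all genes tested; the WT preproNK replicate 2 array had the lowest mean of this list, 5.68, against 6.36 to 7.25 on the others. The lowest p in that comparison was that of Cdh5, VE-cadherin, with a difference of 1.90 (SE 0.45, adjusted p = 0.452), and Rasgrp2, the exchange factor that activates Rap1 before integrins, followed with 1.39 (SE 0.35, adjusted p = 0.507). The difference of Cdh5 was 1.01 as the mean over probe sets and 1.36 without WT preproNK replicate 2, and that of Rasgrp2 was 0.71 with quantile normalization repeated. Without WT preproNK replicate 1 the differences were 2.44 for Cdh5 and 1.51 for Rasgrp2. That fit has the array that stood apart as its sole WT preproNK sample.

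**Figure D4:**
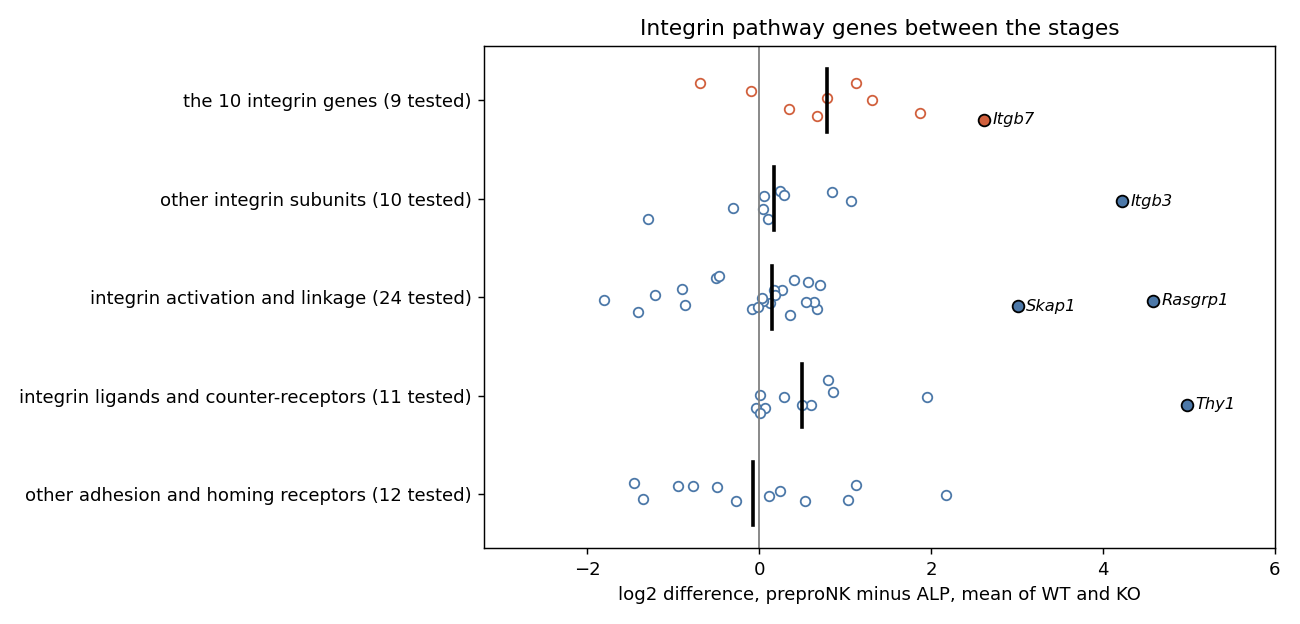
Log2 difference between preproNK and ALP in the mean of both genotypes (x axis) for the tested integrin genes and 4 lists of the pathway (y axis, points spread vertically at random). Filled, named points passed limma's adjusted p and vertical bars are medians. Itgb7, Itgb3, Rasgrp1, Skap1 and Thy1 are the 5 called genes, from 2.62 to 4.98.

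The genes most like a member over the 8 arrays were sought by Pearson r among the 11583 tested genes outside the 10. For Itgb7 they were Dgka, a diacylglycerol kinase (r = 0.995), Zbp1, a nucleic acid sensor (r = 0.992), and the septin gene Septin8 (r = 0.991). For Itgb2 they were Cnn2 (r = 0.997), Gpr132 (r = 0.996) and Btg1 (r = 0.994). Those of Itgb1 were Clip1, Slc12a7 and Ankib1 (r = 0.983, 0.962 and 0.96), those of Itga2 were Axin2, Il2ra and Sh2d2a (r = 0.982, 0.972 and 0.966), and those of Itgam were Wdr62, Cenps and Auts2 (r = 0.979, 0.973 and 0.971). Il2ra, the interleukin 2 receptor alpha chain, was at 3.28 to 4.94 in ALP and at 9.27, 6.80, 9.03 and 7.77 on the preproNK arrays. Among the members themselves Itgam ran against Itgb7 (r = -0.91) and Itgb2 (r = -0.88). All these are descriptions over 8 arrays that share 2 populations, processing dates and the narrow range of 1 array.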

How the data were processed

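Each of the 8 samples was hybridised to an Affymetrix array with a single label. The authors deposited log2 values per probe set, for which the submitters' processing notes name RMA and Partek, with no settings given in the sources used here. The log2 scale was read from the values. RNA was amplified for 23 cycles before labelling, per the labels' protocols. Arrays have no read depth, and their number sets the precision.

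There were 45141 probe sets in the deposited table. The platform annotation gave 1 symbol to 28898 of them, several to 551 and none to 15692, and 28689 matched RefSeq by Entrez number. The probe set of highest mean stood for a gene, which was tested if above the array median on at least 2 of 8 arrays. A linear model with 1 mean per group, on the 8 arrays together, was fitted by limma 3.58.1 (lmFit, eBayes, R 4.3.3), two-sided, with Benjamini-Hochberg adjustment over 11583 genes and a call at an adjusted p under 0.05. Intervals of 95% use limma's moderated SE. The code was tested on simulated data. The members, lists and tests were chosen with earlier results of these data known. Besides the members, the text names Nfil3, up to 4 called genes per pathway list or else up to 2 with the lowest p, and the 3 genes most like 5 members by r, a selection shortened from the end. Marker genes named singly were chosen after their values were seen.

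Per the design text the numbers stand for processing dates, and so pair the samples. Within-group deviations of replicate 1 correlated at 0.149 to 0.807 across genes in all pairs of groups. Alternatives were the replicate block, each array left out, the mean over probe sets, every probe set alone, no filter, repeated quantile normalization, a floor at the array median, and only the groups compared.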

Additional observations from a re-analysis of the deposited data

How the results depend on the processing

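The count of integrin genes called between the stages depended on the settings, from 0 to 5 of the 9 tested. With the replicate block, 2 members were called in KO and 3 in the mean of both genotypes, and over all genes the calls went from 11 to 67 in WT, 203 to 449 in KO, 391 to 852 in the mean and 0 to 10 between KO and WT preproNK. The block changed no call of a member other than those given above. Repeated quantile normalization gave 1 in WT and 2 in the mean, every probe set tested alone gave 2 in the mean, no filter gave 0 in KO, and fitting only the KO groups gave 4. Over all genes, quantile normalization raised the calls from 11 to 73 in WT, and fitting only the KO groups from 203 to 1234. The block without WT preproNK replicate 2, added after seeing the data, gave 2 in WT, 4 in KO and 5 in the mean. Leaving out 1 array gave 0 to 1 in WT, 0 to 4 in KO, 0 to 3 in the mean and 0 to 3 between KO and WT preproNK, where the lone array of a group is assumed to vary like the other groups, and the calls over all genes ran from 0 to 824, 0 to 530, 35 to 1058 and 0 to 2532. In KO the count was 0 without any 1 array of WT ALP, KO ALP or KO preproNK, and 4 without either WT preproNK array. The causes were not tested. No called difference of a member changed sign under any alternative run. Of 54 differences of tested members 25 changed sign under at least 1 alternative, all of them not called, among them 8 of 9 between KO and WT ALP and 1 of 9 between the stages in KO (Itga4). Signal over background limits Itga1, Itga2 and Itga6, which lie near or below the array medians.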
